A study of Mus musculus with 144 samples.

Results

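Translation factors are the proteins that start and extend the protein chain on the ribosome, and the 58 genes described here encode the mouse initiation factors named Eif1 to Eif6 and the elongation factors named Eef1 and Eef2. They were chosen by symbol among the protein-coding genes, leaving out symbols that contain ak, bp or nif, such as those of the eIF2 kinases and of the eIF4E-binding proteins. The choice gave 58 of the 55364 listed genes, of which 21846 were protein-coding. Because it goes by name, the set also holds a few relatives that are not factors themselves, such as Eef2k, the kinase that phosphorylates eEF2, Eef2kmt, its methyltransferase, and Eef1e1, a part of the tRNA synthetase complex.

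The genes were measured in microglia, the tissue macrophages of the neural retina, which were sorted as single cells by the green fluorescence of Iba1-EGFP mice on a C57BL/6 background at 20 to 22 months of age. Iba1, the product of Aif1, is also made by macrophages and monocytes. By title, 54 wells came from untreated mice (uncrushed below), 36 from mice at day 2 after crush of the optic nerve, which injures the axons of the retinal ganglion cells, and 54 from day 4. The wells lay on 3 plates of 48, and each group filled rows of its own on every plate, so group and row cannot be told apart. The 18 day 4 wells of plate 1 are tagged as day 2 in their treatment field, and here the title decided.

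Depth and content of the wells set what could be read. Deep wells, with at least 60079 reads recovered from the deposited values, numbered 39, 25 and 24 in the uncrushed, day 2 and day 4 groups, and the other 56 wells had at most 14205 reads. At least 3 of 11 microglia markers were found, at 10 or more reads, in 37 of 39, 22 of 25 and 22 of 24 deep wells. At least 3 of 12 neutrophil markers were found in 3, 8 and 6 deep wells and at least 3 of 15 rod photoreceptor markers in 4, 1 and 1, while all 4 endothelial markers were below 10 reads in every deep well. By gene number, 10 deep wells stood apart, with over 4000 genes at 10 or more reads, against at most 3886 in the rest. They are called gene-rich wells below, and 8 of them were day 4 wells. Some day 4 wells with at least 3 neutrophil markers were themselves gene-rich and held 10 or 11 of the 11 microglia markers. Day 4 had only 2 deep wells on plate 3. No label names an animal, so cells are not replicates here, each group counts as 1 sample, and values are given with the SD over wells and within plates but with no test.

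Initiation begins when eIF2 brings the initiator tRNA to the small ribosomal subunit, together with eIF1, eIF1A, eIF3 and eIF5, and when the cap-binding complex eIF4F, made of eIF4E, eIF4G and the helicase eIF4A, recruits the messenger RNA. After eIF5B has joined the large subunit, eEF1A delivers each aminoacyl-tRNA, eEF2 moves the ribosome along by a codon, and eIF5A, the protein that carries the modified amino acid hypusine, helps at slow peptide bonds. Many elongation factor and ribosomal protein messengers begin with a run of pyrimidines after a C, the 5′ terminal oligopyrimidine (TOP) motif, through which mTOR signalling controls their translation. Cells that grow and divide raise protein synthesis, and microglia are known to become reactive and divide after nerve injury.

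The DNA at the start of these genes is shown first, because the pyrimidine run and short promoter elements are known from genes of the translation machinery. Promoters of 300 bases, from 250 before to 50 after the start, were taken from RefSeq on GRCm38.p6 for 45 of the 58 genes. The hexamer CACGTG, a palindrome that reads the same on both strands, lay in at least 1 promoter of 12 of these 45 genes, 26.7%, against 8.09% of all 27025 genes with an entry and 9.84% of 61 ribosomal protein genes. A 30-base stretch around it is printed for 6 members whose values are described below, each 5′ to 3′ on the gene's strand with the hexamer in capitals.
Eif5a, chr11:69921443-69921472, minus strand: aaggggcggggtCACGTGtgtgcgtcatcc
Eif5a, chr11:69920791-69920820, minus strand: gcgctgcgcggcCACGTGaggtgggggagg
Eif4h, chr5:134639488-134639517, minus strand: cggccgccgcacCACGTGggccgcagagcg
Eif4a1, chr11:69672595-69672624, minus strand: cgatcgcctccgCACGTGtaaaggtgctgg
Eif4e, chr3:138527192-138527221, plus strand: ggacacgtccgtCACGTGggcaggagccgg
Eif1b, chr9:120492570-120492599, plus strand: cgtgcggacggtCACGTGgcggcggcgcgc
Eef2, chr10:81176576-81176605, plus strand: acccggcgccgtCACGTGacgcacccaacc

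Eif5a held the hexamer at 2 places, which lie 74 and 178 bases before annotated start sites. In Eif4e it lies 64 bases before the start, and a second copy not printed here lies 228 before it. The distance is 96 bases in Eif4h, 189 in Eif4a1, 24 in Eif1b and 43 in Eef2. The 9 genes with the hexamer that passed the filter on low values had a median day 4 minus uncrushed difference of 1.07 in mean log2(FPKM + 1), and the 27 with a promoter entry and no hexamer had 1.05. The medians with and without the hexamer thus lay close together. The motif CCGGAAG, searched on both strands, lay in 31.1% of the 45 genes, in 39.3% of the ribosomal protein genes and in 9.93% of all genes.

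A run of C followed by at least 5 pyrimidines within 15 bases of the start was found in 12 of the 45 genes, 26.7%, close to the 25.5% of all genes, and in 57.4% of the ribosomal protein genes. Of the 10 members known for TOP messengers, 6 had a promoter entry, and 3 of these had such a run. It began 5 bases before the annotated start in Eef1a1, 4 before it in Eif3f and 12 before it in Eif4b. The Eif4b run, 6 bases long, ends before the start and so lies outside the annotated messenger. Whether these runs are TOP motifs was not tested. The 3 stretches are printed with the run in capitals.
Eef1a1, chr9:78481710-78481739, minus strand: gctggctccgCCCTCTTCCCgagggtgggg
Eif3f, chr7:108934400-108934429, plus strand: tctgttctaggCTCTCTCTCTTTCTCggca
Eif4b, chr15:102073758-102073787, plus strand: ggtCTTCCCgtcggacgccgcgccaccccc

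Across deep wells the 3 groups differed in how many of the factors a well held. At 10 or more reads, uncrushed wells held a median of 7 of the 58 genes (range 1 to 30), day 2 wells 10 (range 2 to 35) and day 4 wells 12.5 (range 0 to 44). The ranges overlapped throughout. Factors found in at least 50% of the deep wells numbered 3 in uncrushed retina, namely Eef1a1, Eif1 and Eef2, then 5 at day 2 with Eif5a and Eef1b2 added, and 13 at day 4. With every deep well thinned to 50000 reads, the median number with any read was 9, 10 and 15.5. The number of all genes moved with it, from a median of 1044 at 10 or more reads in uncrushed wells to 1495 at day 2 and 2174 at day 4. Per 1000 genes found, the wells held a median of 6.48, 6.41 and 6.56 factors in the same order. Within groups, the number of factors and the number of all genes per well had a Pearson correlation of 0.93, 0.95 and 0.97 over 39, 25 and 24 wells, as a description of counts from the same libraries.

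**Figure D1:**
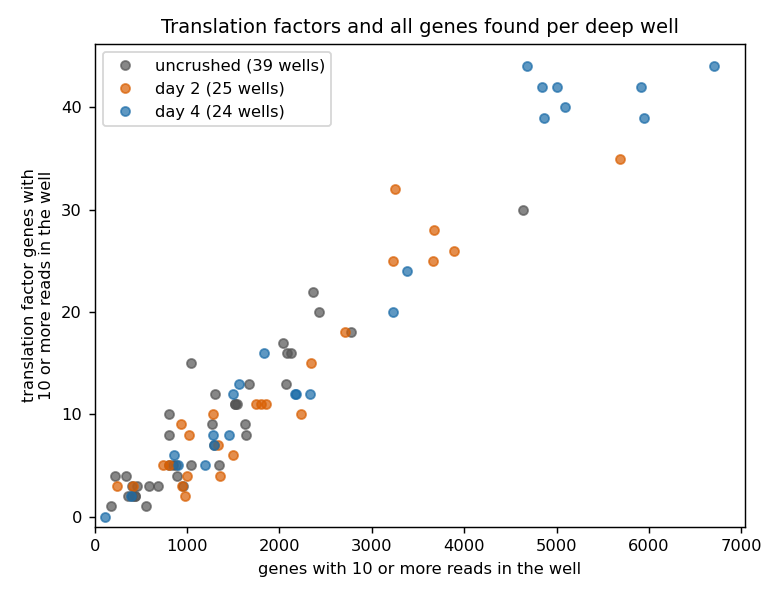
Each point is 1 deep well, with the number of genes at 10 or more reads on the x axis and the number of the 58 translation factor genes at 10 or more reads on the y axis, coloured by group. The points of the 3 groups lie along 1 band, and 8 of the 10 wells past 4000 genes are day 4 wells.

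The share of reads that fell on the factors did not move in step with these numbers. Summed over the 58 genes, the median was 10122 reads in 1000000 in uncrushed wells, 9371 at day 2 and 9839 at day 4, with ranges of 697 to 52922, 1134 to 32967 and 118 to 28399. Ribosomal protein genes, 81 in all, summed to a median of 39614, 33254 and 25246 reads in 1000000. Within the wells that held a factor, its level was often lower after crush. Of 35 factors found in at least 3 deep wells of every group, 27 had a lower median FPKM among the wells holding them at day 4 than in uncrushed retina, 77.1%, against 83.9% of 3785 genes. The 8 exceptions were Eif5a, Eif4a1, Eif4a2, Eif4g2, Eif4h, Eif2s1, Eif2s3y and Eif3c.

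Levels were then compared as mean log2(FPKM + 1) over deep wells, where FPKM is the read count scaled by gene length and by the total of the well, and a gene counted as called when the mean differed by 1 or more. Only genes with 10 or more reads in at least 10% of the 88 deep wells entered, which 46 of the 58 factors and 5786 genes did. The other 12 factors, found in 0 to 8 deep wells, were Eef1a2, Eef1e1, Eef2k, Eif2a, Eif2s3x, Eif2b1, Eif2b3, Eif4a3l1, Eif4e1b, Eif4e3, Eif4g1 and Eif5a2. At day 2 the called factors were 6 of 46, 13%, against a background of 21.4% of all genes higher and 1.66% lower. They were Eif5a at 3.85, Eif3l at 1.83, Eif1 at 1.27, Eif3c at 1.22, Eif3g at 1.19 and Eif2b2 at 1.15. The median difference over the 46 was 0.40, beside 0.41 over all genes, so the set as a whole stood where the other genes stood. On the 3 plates the median was 0.72, -0.08 and 0.28. Without wells holding neutrophil or rod markers, 14 factors were called against 30.8% of all genes.

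At day 4 the called factors were 27 of 46, 58.7%, against a background of 43.7% of all genes higher and 1.05% lower. The median difference was 1.10 over the factors and 0.86 over all genes, and 44 of the 46 lay above 0, as did 5030 of the 5786 genes. None of the 46 was lower by 1 or more on either day. These counts rested on the gene-rich wells. Without them, 5 factors were called against 19.4% of all genes, and the median was 0.03 beside 0.22 over all genes. The 5 were Eif5a, Eif4g2, Eif2s1, Eif3l and Eif5b, and 24 of the 46 lay above 0. Of the factors called over all deep wells, Eef1g, Eif1b, Eif2b5, Eif3c, Eif4a2 and Eif4a3 then lay below 0, at -0.05, -0.74, -0.01, -0.41, -0.14 and -0.06. Within plates the factors' median was 1.23 on plate 1, 1.73 on plate 2 and -0.85 on plate 3, where the 2 deep day 4 wells held 0 and 2 factors. Without plate 2, 14 factors were called against 31.8% of all genes. Without the day 4 wells of plate 1, whose tag says day 2, 28 factors were called and the median was 1.11.

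Between day 2 and day 4, 20 of 46 factors were higher at day 4, 43.5%, against a background of 22.8% of all genes higher and 2.23% lower. The median difference was 0.76 over the factors and 0.43 over all genes. Without the gene-rich wells 3 factors were called and the median was -0.17, beside -0.16 over all genes. Without wells holding neutrophil or rod markers, 7 factors were called against 13.8% of all genes, and the median was 0.19 beside 0.09 over all genes.

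**Figure D2:**
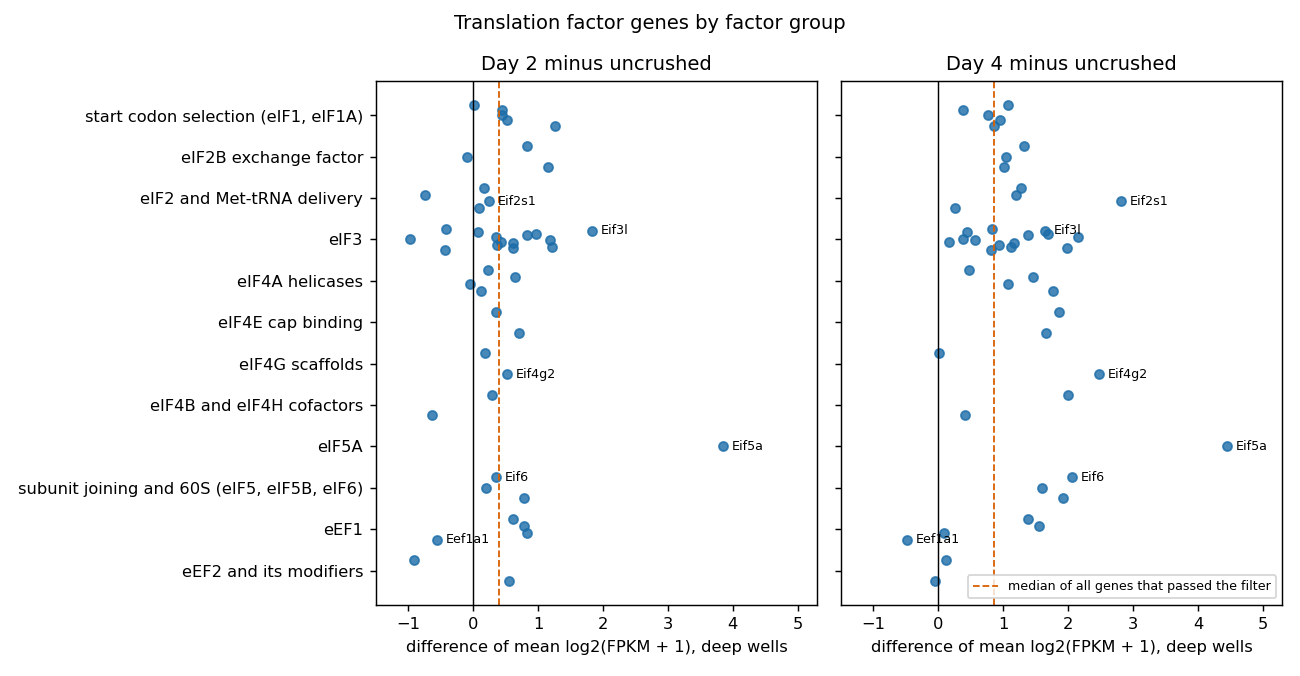
Each point is 1 of the 46 translation factor genes that passed the filter, placed by its difference of mean log2(FPKM + 1) over deep wells on the x axis and by its factor group on the y axis, for day 2 (left) and day 4 (right) against uncrushed retina. The dashed line is the median of all genes, at 0.41 and 0.86, and Eif5a lies farthest right in both panels, at 3.85 and 4.45.

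Eif5a stood apart from the other factors on both days. It encodes eIF5A (ENSMUSG00000078812, chr11:69916714-69921958, minus strand, GRCm38), and its 2 CACGTG stretches are printed above. Its FPKM in uncrushed deep wells ran from 0 over a median of 1.75 to 1128. At day 2 it ran from 0 over 314 to 1935, and at day 4 from 0 over 543 to 3624. The ranges overlapped, but most uncrushed wells lay near 0 and most wells after crush lay far above that.

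In mean log2(FPKM + 1), Eif5a stood at 3.18 ± 3.52 (SD over 39 wells) in uncrushed retina, 7.03 ± 3.55 (25 wells) at day 2 and 7.63 ± 3.52 (24 wells) at day 4. The differences from uncrushed retina, 3.85 and 4.45, were the 5th and 6th highest of 5786 genes. On plates 1, 2 and 3 the day 2 difference was 4.54, 3.52 and 3.24. On plates 1 and 2 the day 4 difference was 4.31 and 6.11, and on plate 3 it was -2.18 with 2 day 4 wells. Day 4 and day 2 differed by 0.60, less than the SD over wells.

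At 10 or more reads Eif5a was found in 12 of 39 uncrushed wells (30.8%, exact 95% interval 17 to 47.6), 19 of 25 day 2 wells (76%, 54.9 to 90.6) and 20 of 24 day 4 wells (83.3%, 62.6 to 95.3). These Clopper-Pearson intervals, here and below, cover counting error only, since reads copied by PCR are not independent molecules. After thinning, any read of it was found in 16, 20 and 20 wells. In the wells that held it, its median FPKM was 208, 457 and 653, so that for Eif5a both the share of wells and the level within them were higher after crush. Without the gene-rich wells the shares were 31.6%, 75% and 75% and the differences 3.74 and 3.73, and without wells holding neutrophil or rod markers the differences were 4.14 and 4.23. As a log2 ratio of mean FPKM + 1, the day 2 difference was 1.95.

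Wells with Eif5a also held more of the other factors. Uncrushed wells with Eif5a held a median of 14.5 other factors and those without it 4. At day 2 the medians were 10 and 4.5, and at day 4 they were 17 and 3.5. They also held more genes of any kind, and their median count of genes at 10 or more reads was 1855, 1805 and 2780 in the 3 groups, beside 810.0, 988.5 and 790.0 in wells without it. The part of gene number in the Eif5a values was not tested beyond the comparison without gene-rich wells.

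Eif5a2, the paralog of Eif5a, did not pass the filter. At 10 or more reads it was found in 0 of 39 uncrushed wells, which allows a share of up to 7.69%, taking 3 wells as the limit of a count of 0. It was found in 0 of 25 at day 2 (up to 12% by the same limit) and in 1 of 24 at day 4, where it reached 426 FPKM. These limits are on wells with 10 or more reads, not on cells that express the gene. Hypusine is made on eIF5A in turn by the enzymes of Dhps and Dohh. Dhps was found in 1, 4 and 4 deep wells, and its differences from uncrushed retina were 0.50 at day 2 and 0.77 at day 4. Dohh was found in 0, 1 and 9 wells, with differences of 0.35 and 1.86. Both enzymes were found in far fewer wells than Eif5a in every group.

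**Figure D3:**
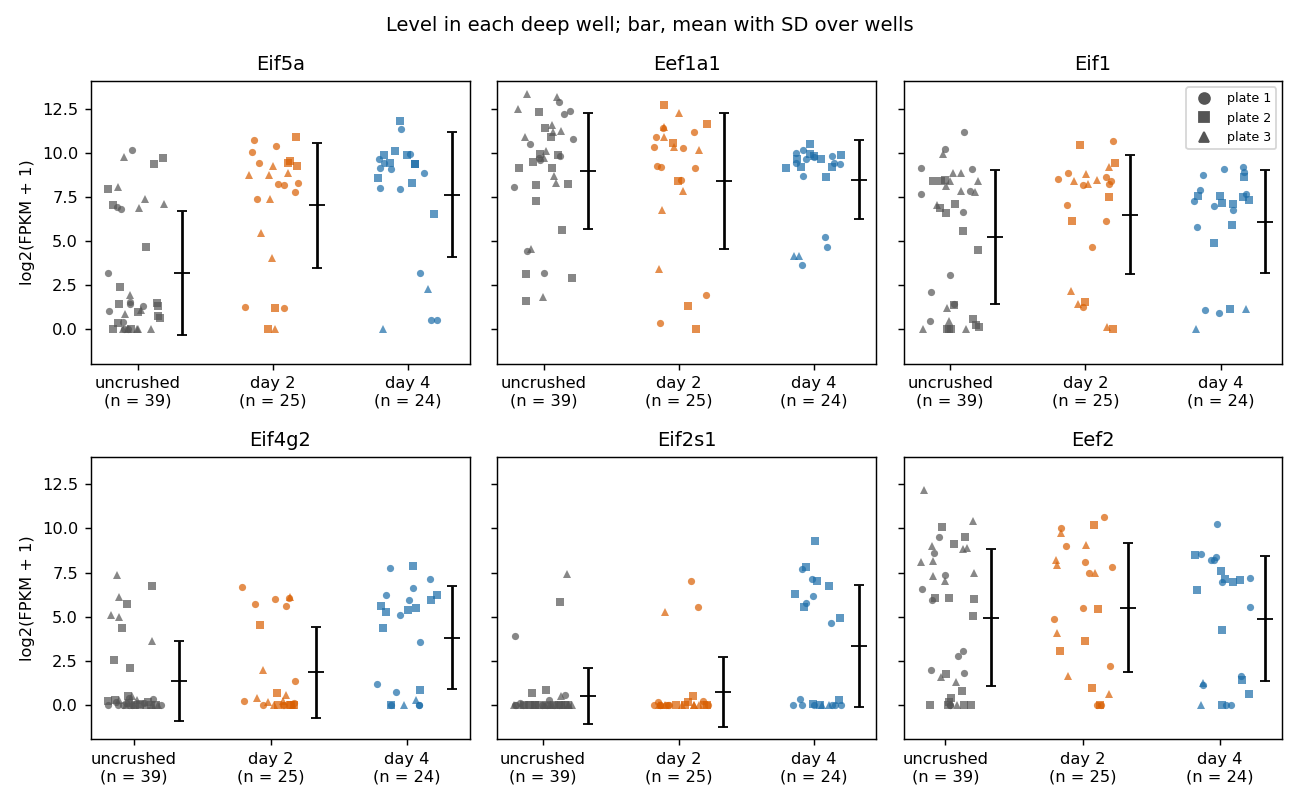
Each point is the log2(FPKM + 1) of 1 deep well for Eif5a, Eef1a1, Eif1, Eif4g2, Eif2s1 and Eef2, with the groups on the x axis, plates as symbols, and the mean with SD over wells as a bar. Most uncrushed wells lie low for Eif5a, whose mean goes from 3.18 to 7.03 and 7.63, while Eif2s1 lies at 0 in most wells before day 4 and Eef1a1 is high in all groups.

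Among the elongation factors, Eef1a1, which encodes eEF1A1 (ENSMUSG00000037742, chr9:78478449-78489151, minus strand), was the most abundant member per length, at a mean of 1432 FPKM over the 88 deep wells. Eif5a followed at 381, Eef2 at 269, Eif1 at 258 and Eif3h at 232. From Eif5a to Eif3h, neighbours in this order do not differ beyond the spread over wells. Eef1a1 ran from 2.07 over a median of 836 to 10332 FPKM in uncrushed wells, from 0 over 1149.8 to 6674 at day 2 and from 11.4 over 678 to 1453 at day 4. The medians overlapped the other groups' ranges, and the highest values came from uncrushed wells. Its mean log2(FPKM + 1) was 8.96 ± 3.26, 8.40 ± 3.87 and 8.48 ± 2.22, with differences of -0.56 at day 2 and -0.48 at day 4. Without wells holding neutrophil or rod markers the day 2 difference was 0.96, and without plate 3 the day 4 difference was 0.31, so its direction on both days changed with the choice of wells. Reads of Eef1a1 were fractions in 96.6% of the deep wells with any, as arises when a read is shared among genes, and its level is uncertain for that reason. Its paralog Eef1a2, known from neurons and muscle, was found in 1, 0 and 0 deep wells.

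The other subunits of eEF1 exchange the nucleotide on eEF1A. Eef1g ran from 0 over a median of 0.87 to 5023 FPKM in uncrushed wells, from 0 over 0.738 to 637 at day 2 and from 0 over 30.7 to 837 at day 4. Its groups overlapped over nearly their whole range, and the difference was 0.62 at day 2 and 1.38 at day 4. Eef1d differed by 0.79 and 1.56. Eef1b2 differed by 0.83 and 0.09, and its day 4 minus day 2 difference of -0.74 was below 0 on each of the 3 plates. Plate 3 had 2 day 4 wells. Of the 4 eEF1 genes past the filter, 0 were called at day 2 over all deep wells. Without wells holding neutrophil or rod markers 3 were, and 4 of all 6 elongation factors, 66.7%, against 30.8% of all genes. In those wells 0 of the 4 eEF1 genes were higher at day 4 than at day 2, with a median of -0.88.

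Eef2, which encodes the translocase eEF2, ran from 0 over a median of 62.2 to 4561 FPKM in uncrushed wells, from 0 over 44.6 to 1611 at day 2 and from 0 over 106 to 1226 at day 4. At 10 or more reads it was present in 23 of 39, 16 of 25 and 15 of 24 wells, and the groups overlapped over nearly all of their range. Its differences were 0.56 and -0.06. Eef2k did not pass the filter and was found in 2, 1 and 0 wells. Eef2kmt differed by -0.91 at day 2 and 0.11 at day 4, with -2.96 on plate 1 at day 2 and 0.06 and 0.31 on the others. At day 4, 2 of 6 elongation factors that passed the filter were called and their median was 0.10. Of 40 initiation factors 25 were called, with a median of 1.15, beside 43.7% and 0.86 over all genes. Without the gene-rich wells 0 of the 6 and 5 of the 40 were called, the latter 12.5%, beside 19.4% of all genes. On plates 1, 2 and 3 the elongation factors' median was 0.64, 1.48 and -2.83, the last with 2 day 4 wells. That of the initiation factors was 1.31, 1.76 and -0.81. Without the gene-rich wells the median was -0.79 for the elongation factors and 0.16 for the initiation factors. The difference between the 2 kinds was not tested.

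Start codon selection is the task of eIF1 and eIF1A. Eif1 ran from 0 over a median of 116 to 2342 FPKM in uncrushed wells, from 0 over 296 to 1616 at day 2 and from 0 over 145 to 593 at day 4. Deep wells holding it made up 59.0% (42.1 to 74.4), 76% (54.9 to 90.6) and 79.2% (57.8 to 92.9) of each group, so that the intervals overlapped. Its mean differed by 1.27 at day 2 and by 0.86 at day 4, with SDs over wells between 2.93 and 3.81. Its paralog Eif1b was found in 5, 4 and 9 wells and differed by 0.02 and 1.07. In 44 wells Eif1 was found without Eif1b, in 17 with it, and in 1 well Eif1b was found alone. Eif1a differed by 0.53 and 0.95, and its X-linked paralog Eif1ax by 0.45 and 0.38. They shared 6 wells, while 11 held Eif1a alone and 5 held Eif1ax alone.

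Of the 3 subunits of eIF2, alpha and beta were higher at day 4 than at day 2 over all deep wells. Eif2s1 encodes eIF2 alpha, the subunit that stress kinases phosphorylate (ENSMUSG00000021116, chr12:78861819-78887010, plus strand). It ran from 0 over a median of 0 to 169 FPKM in uncrushed wells, from 0 over 0 to 128 at day 2 and from 0 over 12.4 to 629.9 at day 4. It was found in 3 of 39 wells (7.69%), 3 of 25 (12%) and 12 of 24 (50%, 29.1 to 70.9), and the highest day 4 wells lay above every well of the other groups. The difference was 0.24 at day 2 and 2.81 at day 4, where it was 2.21 on plate 1, 4.31 on plate 2 and -0.61 on plate 3. All 8 gene-rich day 4 wells held it, and so did 4 of the other 16, which leaves a day 4 difference of 1.45 without the gene-rich wells.

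Eif2s2, for eIF2 beta, ran from 0 over a median of 0 to 190.3 FPKM in uncrushed wells, from 0 over 0 to 55.2 at day 2 and from 0 over 10.4 to 91.8 at day 4. Deep wells with Eif2s2 numbered 10, 4 and 13, fewest at day 2. The day 2 difference was -0.74 and lay below 0 on each plate, and the day 4 difference was 1.19. All 8 gene-rich day 4 wells held Eif2s2, and so did 5 of the other 16. Without the gene-rich wells its mean log2(FPKM + 1) was 1.38 in uncrushed retina and 1.73 at day 4. The gamma subunit has an X-linked and a Y-linked gene. Eif2s3x was found in 0, 2 and 2 wells, and Eif2s3y in 4, 4 and 7. If reads of the Y-linked copy are told apart from the X-linked one, cells from male mice were in all 3 groups. The sex of the cells was not tested further. All 3 subunits were found together in 1 uncrushed well, 0 day 2 wells and 5 day 4 wells. The exchange factor eIF2B, which reloads eIF2 with GTP, had 3 of its 5 genes past the filter. Their day 4 differences were 1.32 for Eif2b5, 1.05 for Eif2b4 and 1.01 for Eif2b2, and without the gene-rich wells they were -0.01, 0.16 and 0.03. Eif2b5 passed the filter through the crush groups alone, with 0, 3 and 6 wells.

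All 14 genes of eIF3, the large scaffold on the small subunit, passed the filter, and 3 were called at day 2, 21.4%, and 7 at day 4, 50%, beside the 21.4% and 43.7% of all genes. Without the gene-rich wells the day 4 median of the complex was -0.35, with 1 called. A median of 1, 3 and 3 of them was found per deep well in the uncrushed, day 2 and day 4 groups, and 7 or more in 3 of 39, 5 of 25 and 9 of 24 wells. Eif3l (ENSMUSG00000033047, chr15:79075179-79094405, plus strand) ran from 0 over a median of 0 to 122 FPKM in uncrushed wells, from 0 over 0.106 to 1409 at day 2 and from 0 over 0.427 to 889 at day 4. It was found in 1 of 39 wells (2.56%, 0.0649 to 13.5), 7 of 25 (28%, 12.1 to 49.4) and 7 of 24 (29.2%, 12.6 to 51.1). Uncrushed wells were low almost without exception, while wells after crush were either near 0 or high. Its differences of 1.83 and 1.64 lay above 0 on all 3 plates on both days, with only 2 day 4 wells on plate 3.

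Other eIF3 subunits had other patterns. Eif3i was found in 4, 4 and 11 wells and differed by 0.36 and 2.15. Eif3c differed by 1.22 and 1.12, and Eif3g by 1.19 and 0.56. Without the gene-rich wells the day 4 difference was -0.41 for Eif3c and -0.73 for Eif3g. Eif3h, with the highest mean level of the complex, reached 12564 FPKM in 1 uncrushed well and was found in 10, 4 and 10 wells. Its difference was -0.97 at day 2, with -2.60, -1.32 and 1.12 on the plates, and 0.38 at day 4. Eif3k, the next in level, differed by 0.07 and 0.44. The lowest day 4 difference in the complex was that of Eif3f at 0.16 and the highest that of Eif3i. Eif3j1 and its near-identical copy Eif3j2 were found in the same 15 wells, and their reads cannot be told apart with certainty.

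**Figure D4:**
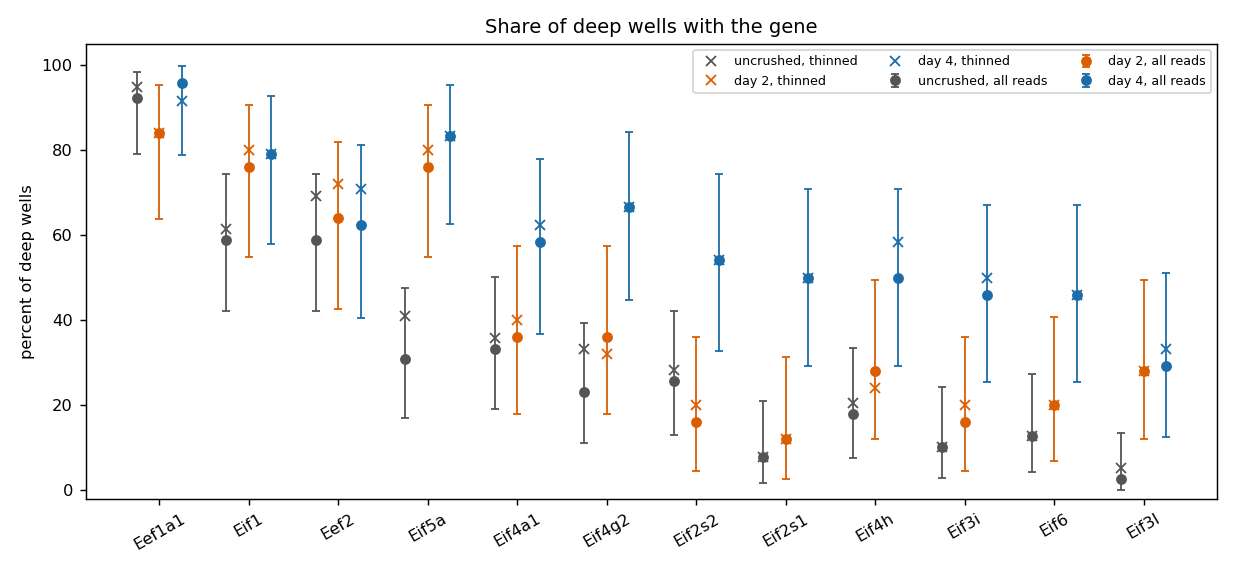
Points give the percent of deep wells with 10 or more reads of the gene, with exact 95% intervals for counting error as bars, and crosses the percent with any read after thinning to 50000 reads, by gene on the x axis and by group in colour. Eif5a is high at both days, Eif2s1, Eif2s2, Eif3i, Eif4g2 and Eif6 are highest at day 4, and Eef1a1 and Eef2 show overlapping intervals in all 3 groups.

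In the cap-binding machinery the scaffold Eif4g2 had the largest day 4 difference. It encodes DAP5, an eIF4G relative that lacks the site for eIF4E (ENSMUSG00000005610, chr7:111067750-111083030, minus strand). Its FPKM ran from 0 over a median of 0.115 to 165 in uncrushed wells, from 0 over 0.186 to 102 at day 2 and from 0 over 35.7 to 233 at day 4. The share of deep wells with it was 9 of 39 (23.1%, 11.1 to 39.3), 9 of 25 (36%, 18 to 57.5) and 16 of 24 (66.7%, 44.7 to 84.4). Most day 4 wells thus lay in the upper part of the range, where few uncrushed wells lay. The difference was 0.52 at day 2, with 2.80, -0.65 and -0.99 on the plates, and 2.48 at day 4, with 3.59, 3.18 and -2.03. Without the gene-rich wells the day 4 difference was 1.73. Eif4g1, the classical scaffold, did not pass the filter and was found in 1, 2 and 5 wells.

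Cap recognition rests on eIF4E. Eif4e was found in 4, 5 and 11 wells and differed by 0.71 at day 2 and 1.66 at day 4. Eif4e3 did not pass the filter, with 1, 1 and 5 wells, and Eif4e1b was at 0 in every deep well. The helicase Eif4a1 ran from 0 over a median of 0.274 to 325 FPKM in uncrushed wells, from 0 over 1.17 to 175 at day 2 and from 0 over 60.6 to 227 at day 4. Its median at day 4 was higher, yet the highest single well was uncrushed, and the difference was 0.12 at day 2 and 1.77 at day 4. Its paralog Eif4a2 was found in 6, 4 and 8 wells and differed by -0.04 and 1.07. Eif4a3, a helicase of the exon junction complex, differed by 0.65 and 1.46. Of the helicase cofactors, Eif4h was found in 7, 7 and 12 wells and differed by 0.29 and 2.00, and Eif4b was found in 5, 1 and 6 and differed by -0.63 and 0.41. Eif4e, Eif4a1 and Eif4g1 were found together in 0, 1 and 3 wells. The gene-rich wells weighed on the day 4 values here. All 8 at day 4 held Eif4e, Eif4a1 and Eif4h, as did 3, 6 and 4 of the other 16. Without them 0 of 2 eIF4E genes, 0 of 4 helicases and 0 of 2 cofactors were called, beside 19.4% of all genes. The medians were 0.60, -0.10 and 0.36, beside 0.22 over all genes.

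All 3 factors of subunit joining and of the large subunit were called at day 4, beside 43.7% of all genes. Without the gene-rich wells 1 of the 3, Eif5b, was called, and their median was 0.92 beside 0.22 over all genes. Eif6, which keeps the large subunit from joining too early (ENSMUSG00000027613, chr2:155819832-155826925, minus strand), ran from 0 over a median of 0 to 321 FPKM in uncrushed wells, from 0 over 0 to 495 at day 2 and from 0 over 1.37 to 1028 at day 4. Wells with Eif6 numbered 5, 5 and 11. Its day 4 difference of 2.05 was 2.53, 1.70 and 3.50 on plates 1, 2 and 3, and it was the only member above 0 on every plate in both day 4 comparisons. The value on plate 3 rests on 2 day 4 wells, which held 0 and 2 factors at 10 or more reads. The part of the gene-rich wells in it can be read from the shares, since all 8 at day 4 held it but only 3 of the other 16 did, beside 4 of 38 in uncrushed retina. Eif5, which triggers GTP hydrolysis on eIF2, was found in 3, 6 and 11 wells and differed by 0.78 and 1.92. Eif5b, the joining factor, was found in 3, 4 and 14 wells and differed by 0.197 and 1.602. On the exons of Eif5b, 1643 bases overlap Rev1 on the opposite strand, and the counting is not stated to use strand, so reads of the 2 genes cannot be told apart there.

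The sign of the difference was also read on each plate. Of the 46 members, 10 lay above 0 on all 3 plates at day 2, among them Eif5a, Eif3l, Eif3c, Eif3g and Eif5, and 3 lay below, Eef1a1, Eif2s2 and Eif3a. At day 4, 4 lay above 0 on all 3 plates, Eif6, Eif3l, Eif3j1 and Eif3j2, and 41 lay above 0 on plates 1 and 2. In the day 4 minus day 2 comparison Eif6 lay above 0 on all 3 plates and Eef1b2 below. In both day 4 comparisons the sign on plate 3 rests on 2 day 4 wells, which held 0 and 2 factors. The 9 members that passed the filter and are not described otherwise, Eif1ad, Eif2d, Eif3b, Eif3d, Eif3e, Eif3m, Eif4a3l2, Eif4e2 and Eif4g3, had day 4 differences from 0.01 for Eif4g3 to 1.99 for Eif3b.

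Genes beside the factors in protein synthesis were read in the same way. The 10 members known for TOP messengers had a median day 4 difference of 0.39 with 3 called, and the other 36 had 1.23 with 24 called, beside 0.86 and 43.7% over all genes. Ribosomal protein genes, which share the TOP motif, had a median of 0.17 with 19 of 81 called. Within plates the members with TOP messengers lay at 1.11, 1.31 and -2.44 and the ribosomal proteins at 0.69, 0.83 and -3.96, beside 0.87, 1.30 and -0.75 over all genes. On plates 1 and 2 taken singly, the members with TOP messengers thus did not lie below all genes. With these 2 plates pooled they did, at 0.82 beside 1.09 over all genes, with 50% called against 53.6%. Their place relative to all genes thus changed with the way the plates were joined, and plate 3 had 2 day 4 wells. The ribosomal protein list was drawn by name and also holds Rps19bp1, a binding protein, which was called at day 4 with 1.64. At day 2 the medians were 0.50 and 0.36 for the members with and without TOP messengers and -0.06 for the ribosomal proteins. The median over all genes was 0.41. Without wells holding neutrophil or rod markers the 3 medians were 0.96, 0.66 and 0.78, beside 0.58 over all genes. At day 2 the place of the ribosomal proteins relative to all genes thus changed with the choice of wells. Among the ribosomal proteins, Rplp0 differed by 1.10 at day 2 and 2.99 at day 4, against the list's median.

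In the list of enzymes that charge tRNAs, 10 of 14 genes were called at day 4, beside 43.7% of all genes. Their median was 1.34. Without the gene-rich wells 2 of the 14 were called, 14.3%, beside 19.4% of all genes. The median was then 0.32, beside 0.22 over all genes. The list also holds Aimp1 and Aimp2, scaffolds of the synthetase complex, at 0.42 and 1.27. Dars, for aspartate, was found in 0, 3 and 11 wells, so it passed the filter through the crush groups alone, and differed by 0.99 and 2.36. Gars, for glycine, was found in 3, 3 and 9 and differed by -0.05 and 2.24. Of 14 related regulators that passed the filter, 3 were called at day 2 and 7 at day 4, with medians of 0.46 and 0.96. The shares over all genes were 21.4% and 43.7%. Mcts1, a factor of ribosome recycling and reinitiation, differed by 1.74 and 3.07, and Eif4ebp1, the mTOR target that holds back eIF4E, by 1.98 and 1.62.

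Termination, mitochondrial and stress genes filled out the picture. Of 2 termination genes past the filter, Etf1, the release factor, differed by 0.65 and 1.65 and Gspt1, its partner, by -0.18 and 0.52. Mitochondrial translation factors had 2 of 5 called at day 4, Tsfm at 1.36 and Tufm at 1.30, beside 43.7% of all genes. Without the gene-rich wells 0 of these 5 were called. In the list of genes that respond to eIF2 phosphorylation, 5 of 13 entries passed the filter, and some of the rest were below 10 reads in every deep well. Of the 5, 3 were called at day 4, beside 43.7% of all genes, among them Ddit3 at 1.38 and Ppp1r15a at 1.201. At day 2, 0 of the 5 were called. Without the gene-rich wells 0 of the 5 were called at day 4, with a median of 0.18 beside 0.22 over all genes. Of 20 proliferation genes 9 passed the filter, most of them through the crush groups, and among them Hmgb2 differed by 3.34 and Stmn1 by 3.28 on day 2.

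**Figure D5:**
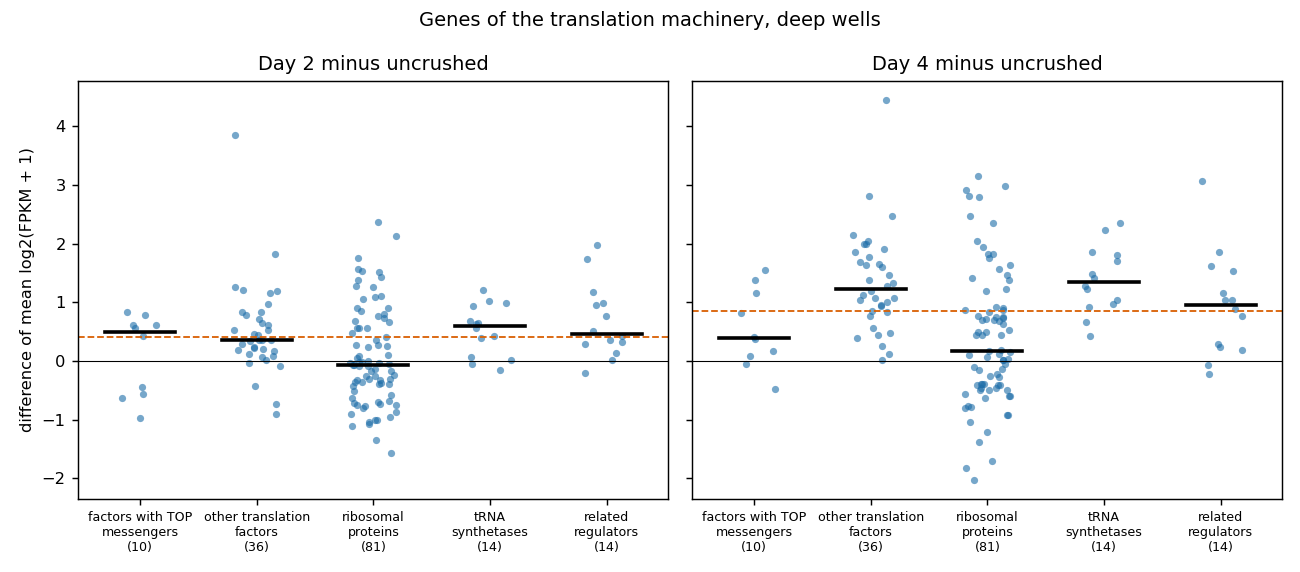
Each point is 1 gene that passed the filter, by its difference of mean log2(FPKM + 1) over deep wells on the y axis and by list on the x axis, with black bars for list medians and a dashed line for the median of all genes, at day 2 (left) and day 4 (right). At day 4 the factors with TOP messengers, at 0.39, and the ribosomal proteins, at 0.17, have medians under the dashed line at 0.86, and the other factors, at 1.23, and the tRNA synthetase list with its 2 scaffold genes, at 1.34, lie over it. On plates 1 and 2 taken singly the factors with TOP messengers were at 1.11 and 1.31, not under the 0.87 and 1.30 of all genes. With these 2 plates pooled they were at 0.82, under the 1.09 of all genes.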

How the data were processed

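Single cells were sorted into lysis buffer, and tagmented cDNA was amplified with the Nextera XT kit, per the labels' protocols. Trim Galore 0.4.4, Trimmomatic 0.36, cutadapt 1.16, STAR 2.7.2b, featureCounts 1.6.1 and the build GRCm38.p6 (mm10) are named in the submitters' processing notes. FPKM was deposited by the authors for 55364 genes in 144 wells. FPKM times length gave values that summed to 1000000 per well, and the most frequent product above 0 was taken as 1 read. Of values under 100 reads, 40.9% were whole within 0.01, and the rest were fractions of reads, so no count test was run. Deep wells had at least 50000 reads, and depths ran from 643 to 8065036. Wells are not replicates, so no p-value is given, and the deposited FPKM were compared as differences of mean log2(FPKM + 1), with a pseudocount of 1. Every member was counted. Named with values were the 2 most abundant of each factor group, the 6 largest differences of each comparison among genes found in at least 25% of the wells of a group, the paralog pairs, and the 2 largest of each other list, of which 1 is not reported here. Eef1b2, Eef1d, Eef2k, Eif2b5, Eif3a, Eif3f, Eif3j1, Eif3j2, Eif5b, Eef1e1, Dhps, Dohh, Aimp1, Aimp2 and Rps19bp1 were named outside this rule, after their values were seen. The members and lists were chosen with earlier results of these data known, and the high day 2 value of Eif5a over all wells was among those results. The sets of wells without neutrophil or rod markers had fewer than 3 of each. The reported differences between groups were not tested. Motifs were searched on both strands of RefSeq promoters. No 2 wells held identical values. The tools were numpy 2.4.6, scipy 1.17.1, pandas 2.3.3 and matplotlib 3.10.9 under Python 3.11.15. The closing part gives the effect of 12 planned and 5 added alternatives. Doublets were not called.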

Additional observations from a re-analysis of the deposited data

How the results depend on the processing

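No paired analysis was possible because the labels name no animal and the replicate numbers only name wells. The main values are 6, 27 and 20 factors higher by 1 or more at day 2 against uncrushed, day 4 against uncrushed and day 4 against day 2. For day 2, the count was 2 after centring on the median of all genes, when the median difference became -0.0075, 14 without neutrophil or rod wells, 14 in microglia wells alone, 14 with a pseudocount of 0.1, 2 with a pseudocount of 10, 10 without plate 3 and 10 with the day 4 wells of plate 1 taken as day 2. For day 4, it was 11 over all wells, 9 after centring, 14 as a log2 ratio of mean FPKM + 1, 6 with a pseudocount of 10, 14 without plate 2 and 5 without gene-rich wells. For day 4 against day 2, it was 8 over all wells, 8 after centring, 7 without neutrophil or rod wells, 8 in microglia wells alone, 1 with a pseudocount of 10, 8 without plate 2 and 3 without gene-rich wells, when the median became -0.17. Some of the day 4 wells left out for neutrophil markers were gene-rich wells with 10 or 11 microglia markers, so these alternatives overlap. The cause of the changes in count was not tested. The share called over all genes moved as well, for day 4 to 16.3% after centring, 31.9% as a ratio of means and 19.4% without gene-rich wells. The other counts stayed within 1.5 times and the other medians kept their sign, but not their size: the day 4 median was 0.36 over all wells, 0.22 as a ratio of means and 0.03 without gene-rich wells. Eef1a1 was not called, and its day 2 difference of -0.56 became 0.96 without neutrophil or rod wells and 1.05 in microglia wells. Without the day 4 wells of plate 1 the day 4 median was 1.11 with 28 factors called. Plate 3 had 2 deep day 4 wells, so its day 4 values are the least precise. Alternatives on the plate 1 tag, microglia wells, gene-rich wells and copies that share reads were chosen after seeing the data. Genes with few wells, such as Eif4g1 or Eef2k, were not measurable as differences at this depth.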
